A study of Mus musculus with 3 samples.

Results

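The D cyclins, CDK inhibitors and RB family form the core of cell cycle exit, and their mRNA levels were compared across 3 stable C2C12 lines. The members were the 10 genes Cdkn1a, Cdkn1b, Cdkn2c, Rb1, Rbl1, Rbl2, Ccnd1, Ccnd2, Ccnd3 and Cdk4, taken by symbol from the 22068 genes listed in each library. All 10 were listed, and all 10 passed the filter used throughout, a mean of at least 1 RPKM (read counts scaled to gene length and to the library total) over the 3 libraries, which 10172 genes passed.

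C2C12 is a mouse myoblast line that leaves the cell cycle and fuses into myotubes when serum is withdrawn. The cells were infected with lentivirus, selected with blasticidin and sampled at 12 h in low-serum differentiation medium, and polyadenylated RNA was sequenced. The control line carried the empty vector, the overexpression line carried Linc-RAM, a muscle long non-coding RNA, and the knockdown line carried a short hairpin RNA against Linc-RAM built in a vector with the U6 promoter. Whether each line was a pool or 1 clone is not given in the sources used here. With 1 library per condition no difference between conditions had a replicate check, so no p-value or standard error across replicates was given. Each line was divided by that one control library, so the 2 comparisons share it. The ratio of overexpression to knockdown is given beside them because its values do not use that library, though the filter does. Where 3 values follow each other with no label, they are in the order control, overexpression, knockdown.

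Read totals of 5130481 (control), 2105513 (overexpression) and 1878146 (knockdown) were recovered from the RPKM values, and they gave reads per gene. Intervals are exact 95% intervals from these reads (Poisson for a level, Clopper-Pearson for a ratio) and cover counting error only. Linc-RAM itself, listed as 2310015B20Rik, had 0, 1 and 0 reads, so its values did not check the labels. All 6 markers of myoblasts lay at 1 RPKM or more in each library. Of 8 markers of differentiating muscle, Ckm and Myh3 were at 0 in each library. The 4 markers of macrophages summed to at most 2.00 RPKM and the 4 of endothelial cells to at most 0.248 RPKM in any library.

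In G1 phase, D cyclins bind the kinases CDK4 and CDK6 and direct them to the RB family, also called pocket proteins. Phosphorylated pocket proteins release E2F transcription factors, and genes of DNA synthesis are then transcribed. CDK inhibitors block these kinases, and p21, the product of Cdkn1a, is a known target of both MyoD and p53. When myoblasts differentiate, p21 and RB hold the nuclei out of the cycle, and cyclin D3 is known as the D cyclin that stays high in myotubes.

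Promoter sequences from RefSeq on the GRCm38.p6 build were matched for 7 of the 10 members, in 10 windows that each held the 250 bases before a transcription start. Rb1, Ccnd1 and Ccnd2 were not matched. The windows were searched on both strands for the E-box CANNTG, the hexamer bound by MyoD and other basic helix-loop-helix factors, and for the E2F-type octamers TTTCGCGC and TTTGGCGC. An E-box was found in 3 of the 10 windows, against 66.2% of 32851 windows of this length over all genes, and an E2F-type octamer in 1, against 0.654%. That window, of Rbl1, also held the only CAGCTG among the members, a subset of the E-box found in 13.0% of all windows. The Cdk4 window held 4 E-boxes, each CACGTG. A match is a description of letters and not of binding. Windows are shown for Cdkn1a and Ccnd3, whose levels were highest with overexpression and lowest with the hairpin, and for Rbl2, which was highest with knockdown. Cdk4 had the same order of levels as Cdkn1a and Ccnd3, but its window is not shown. Capitals mark E-boxes. The Cdkn1a window shown has 1, which begins 187 bases before the start, and the other pair shown has no match to either motif. Cdkn1a and Ccnd3 each have 2 windows, and the one not shown has no match to either motif. The windows shown lie at chr17:29093519-29093768, chr17:47593217-47593466 and chr8:91069807-91070056, all on the forward strand.
Cdkn1a: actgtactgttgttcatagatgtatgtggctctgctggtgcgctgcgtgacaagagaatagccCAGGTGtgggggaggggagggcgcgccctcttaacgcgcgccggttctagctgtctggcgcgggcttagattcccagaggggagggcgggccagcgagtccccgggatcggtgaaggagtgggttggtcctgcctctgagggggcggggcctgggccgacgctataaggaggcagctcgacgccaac
Ccnd3: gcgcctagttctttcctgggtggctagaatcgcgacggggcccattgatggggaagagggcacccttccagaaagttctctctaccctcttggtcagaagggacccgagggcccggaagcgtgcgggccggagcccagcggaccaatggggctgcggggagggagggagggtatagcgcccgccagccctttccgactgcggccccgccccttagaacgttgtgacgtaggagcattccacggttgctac
Rbl2: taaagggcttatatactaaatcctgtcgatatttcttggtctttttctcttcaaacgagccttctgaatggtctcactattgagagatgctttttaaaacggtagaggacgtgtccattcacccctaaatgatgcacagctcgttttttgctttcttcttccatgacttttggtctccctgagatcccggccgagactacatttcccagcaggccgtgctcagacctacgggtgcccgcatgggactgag

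The members covered a wide range of levels. In the control library Cdkn1a and Cdk4, at 61.3 and 60.8 RPKM, stood at percentiles 96.7 and 96.6 of the genes that passed the filter, and their intervals overlapped. Ccnd3 followed at 25.1 RPKM, Ccnd1 at 19.0 and Cdkn1b, the gene of p27, at 15.2, and the intervals of Ccnd1 and Cdkn1b overlapped. Below them came Cdkn2c, the gene of the INK4 inhibitor p18, at 8.46 RPKM and Ccnd2 at 6.62, again with overlapping intervals. The RB family was lowest, with Rbl2, the gene of p130, at 4.35 RPKM, Rb1 at 3.71 and Rbl1, the gene of p107, at 2.45, and each of these overlapped its neighbour in this order. With overexpression Ccnd2 came last, after Rbl1, and the other 9 genes kept this order. With knockdown Cdk4 came first and Cdkn1a second, with overlapping intervals, and Rbl1, Rb1 and Ccnd2 came last.

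**Figure D1:**
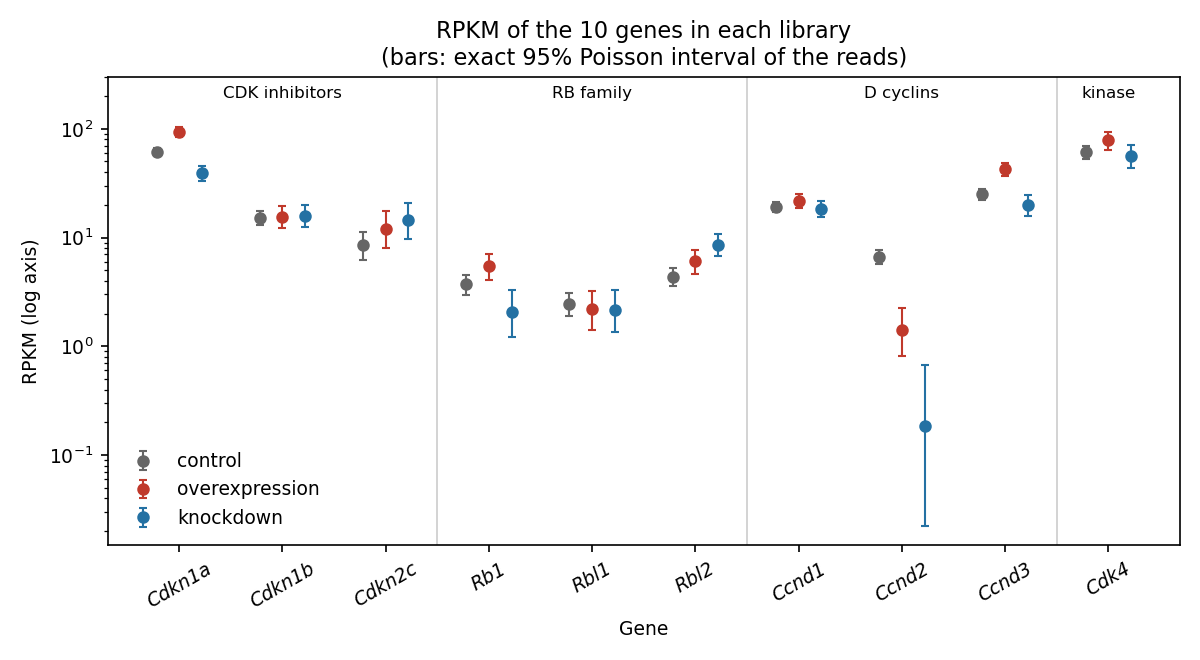
RPKM on a log axis of the 10 genes in the control (grey), overexpression (red) and knockdown (blue) libraries, 1 library each, with exact 95% Poisson intervals of the reads as bars. Ccnd2 goes from the middle of the set in the control, at 6.62 RPKM, to the lowest place in both other libraries.

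Ccnd2, which encodes cyclin D2, had the lowest ratio to the control of the 10 members in both lines. Its gene lies on chromosome 6 of mm9, from 127075797 to 127101066 on the reverse strand. It was at 6.62 RPKM with the empty vector (196 reads), 1.399 with overexpression (17 reads) and 0.185 with the hairpin (2 reads). The intervals of the 3 levels, 5.73 to 7.61, 0.815 to 2.24 and 0.0223 to 0.667 RPKM, did not overlap. The ratio to the control was 0.211 with overexpression (95% interval 0.121 to 0.347) and 0.0279 with knockdown (0.00335 to 0.102). With knockdown, none of the 10140 genes with a ratio above 0 had a lower one, and 25 further genes were listed at 0. With overexpression, 33 of 10147 such genes had a lower ratio. The knockdown ratio rests on 2 reads, and with 1 RPKM added to each value it was 0.155. Ccnd2 passed the filter through the control library, since its mean in the other two was 0.792 RPKM.

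No other gene's exons overlapped those of Ccnd2 in the GENCODE annotation of mm9. Of 12 listed genes within 500 kb of it, 4 passed the filter, namely Ndufa9, Rad51ap1, D6Wsu163e and Parp11, which were looked at after the values of Ccnd2 were known. Their ratios to the control ran from 0.541 to 1.09 with overexpression and from 0.377 to 1.30 with knockdown, and each interval held 1. Some intervals were wide, so they do not show that these genes were unchanged. Rad51ap1, more than 2-fold lower with knockdown at 0.377, had an interval of 0.0962 to 1.07. That of D6Wsu163e with overexpression was 0.133 to 1.64.

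The other D cyclins did not share this pattern. Ccnd3 (chromosome 17, 47642000 to 47736632, forward strand) was at 25.1 RPKM with the empty vector, 42.2 with overexpression and 19.8 with the hairpin. It was thus highest with overexpression, at 1.68 of the control (1.399 to 2.02), while its knockdown ratio of 0.789 (0.611 to 1.01) was within counting error of the control. Ccnd1, the D cyclin that responds most directly to growth factors (chromosome 7, 152115836 to 152125774, reverse strand), was at 19.0, 21.8 and 18.4 RPKM. Its ratios of 1.15 (0.951 to 1.38) and 0.967 (0.786 to 1.18) both had intervals that held 1. Cyclin D1 mRNA was therefore at a similar level in the 3 libraries, with a difference of more than 1.38-fold from the control outside the interval of either ratio. Exons of Ccnd3 share 353 bases with Bysl, at 2.83, 4.93 and 4.97 RPKM, and those of Ccnd1 share 818 with Oraov1, at 4.97, 4.61 and 3.53 RPKM, both on the opposite strand. No source used here gives a strand for the counting, so reads of such a pair cannot be told apart.

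The make-up of the D cyclin pool differed between libraries. RPKM is per length, so the 3 genes can be added within a library, and the sums were 50.7 RPKM with the empty vector, 65.4 with overexpression and 38.3 with the hairpin. Ccnd2 made up 13.1% of the sum with the empty vector, 2.14% with overexpression and 0.481% with the hairpin. Ccnd3 made up 49.5%, 64.6% and 51.6%, and the ratio of Ccnd3 to Ccnd1 was 1.32, 1.94 and 1.08. In the knockdown library the pool was thus almost wholly Ccnd1 and Ccnd3 at nearly equal levels, with overlapping intervals. Counted in reads, without correction for length, Ccnd2 made up 22.9% of D cyclin reads in the control (Clopper-Pearson interval 20.1 to 25.8), 4.34% with overexpression (2.55 to 6.85) and 0.922% with knockdown (0.112 to 3.29).

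Cdk4, the kinase partner of the D cyclins (chromosome 10, 126500590 to 126504976, forward strand), was at 60.8 RPKM with the empty vector, 78.3 with overexpression and 56.2 with the hairpin. The overexpression ratio of 1.29 (1.01 to 1.63) lay just above 1 and the knockdown ratio of 0.924 (0.695 to 1.21) could not be told from 1. Cdk4 shares 604 exonic bases with Tspan31 on the opposite strand. Tspan31 was at 25.01, 27.4 and 29.3 RPKM.

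Of the 3 CDK inhibitors among the members, Cdkn1a had the highest ratio between its highest and lowest library. The gene lies on chromosome 17 from 29227924 to 29237667 on the forward strand, with no exonic overlap with another gene. It was at 61.3 RPKM with the empty vector (637 reads), 93.8 with overexpression (400 reads) and 38.9 with the hairpin (148 reads). The 3 level intervals did not overlap, and the order was overexpression, control, knockdown. The ratio to the control was 1.53 with overexpression (1.35 to 1.74) and 0.635 with knockdown (0.527 to 0.760). Neither reached 2-fold, while the direct ratio of overexpression to knockdown was 2.41 (1.99 to 2.93).

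Cdkn1b did not move with Cdkn1a. The gene of p27, which like p21 belongs to the CIP/KIP inhibitors (chromosome 6, 134870419 to 134875531, forward strand), was at 15.2 RPKM with the empty vector, 15.6 with overexpression and 15.9 with the hairpin. Both intervals held 1, at ratios of 1.02 (0.777 to 1.34) and 1.046 (0.786 to 1.38). Cdkn2c, whose product p18 binds CDK4 and CDK6 and keeps them from D cyclins (chromosome 4, 109333481 to 109339794, reverse strand), was at 8.46, 12.02 and 14.4 RPKM. It lay above the control with knockdown, at 1.71 (1.04 to 2.75) from 48 and 30 reads. With overexpression its ratio of 1.42 (0.859 to 2.31) had an interval that held 1.

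The summed level of the 3 inhibitors was 85.0 RPKM with the empty vector, 121 with overexpression and 69.3 with the hairpin. Cdkn1a made up 72.1%, 77.2% and 56.1% of it in these libraries, while the share of Cdkn2c was 9.95%, 9.90% and 20.8%. Set against the D cyclin sum, the inhibitor sum was 1.68, 1.86 and 1.81. The ratio of Cdkn1a alone to the D cyclin sum was 1.21, 1.43 and 1.01. The overexpression library was thus higher than the control in both sums, and the knockdown library lower in both.

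**Figure D2:**
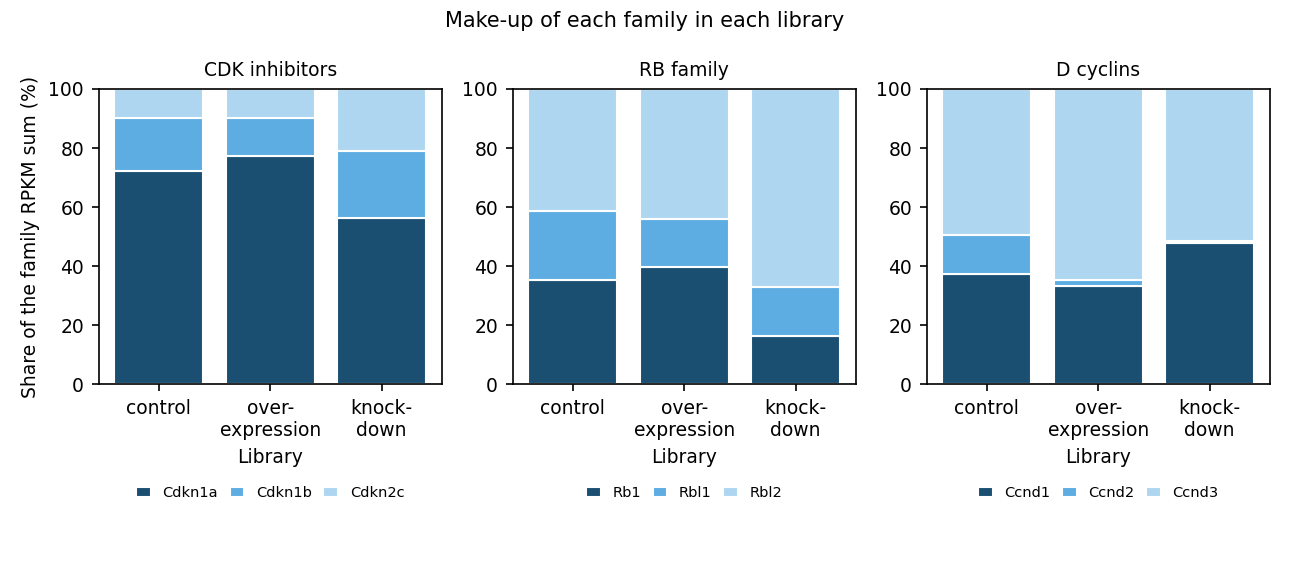
Stacked bars give the share of each gene, in percent, in the RPKM sum of its family in each library (1 library per bar). The share of Ccnd2 in the D cyclins drops from 13.1% to 2.14% and 0.481%, and in the RB family Rbl2 makes up 67.0% with knockdown against 41.4% in the control.

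In the RB family, Rb1 and Rbl2 lay on opposite sides of the control with knockdown. Rb1 (chromosome 14, 73583480 to 73725629, reverse strand) was at 3.71 RPKM with the empty vector (88 reads), 5.44 with overexpression (53 reads) and 2.07 with the hairpin (18 reads). The 2 ratios of Rb1 to the control were 1.47 (1.02 to 2.09) and 0.559 (0.317 to 0.935). The libraries had the same order as for Cdkn1a, Ccnd1, Ccnd3 and Cdk4. Rbl2 (chromosome 8, 93593956 to 93647743, forward strand) was at 4.35 RPKM with the empty vector (109 reads), 6.02 with overexpression (62 reads) and 8.61 with the hairpin (79 reads). p130, its product, is the pocket protein that is most abundant in cells at rest. Its ratio was 1.98 with knockdown (1.46 to 2.67), and 1.39 with overexpression, where the interval of 0.998 to 1.91 reached 1.

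Rbl1, whose product p107 is most abundant in cycling cells (chromosome 2, 156971629 to 157030270, reverse strand), was at 2.45, 2.19 and 2.16 RPKM. Its ratios of 0.896 (0.543 to 1.44) and 0.884 (0.520 to 1.45) left differences of about that size undetectable at 68, 25 and 22 reads. The family sum was 10.5, 13.7 and 12.8 RPKM. The share of Rb1 in it was 35.3% with the empty vector, 39.8% with overexpression and 16.1% with the hairpin, and that of Rbl2 was 41.4%, 44.1% and 67.0%. The ratio of Rb1 to Rbl2 was 0.853, 0.903 and 0.241. Exons of Rb1 share 408 bases with Lpar6 and 488 with Rcbtb2, and those of Rbl2 share 693 with Aktip, all on the opposite strand. Aktip was at 5.85, 7.68 and 6.39 RPKM. Like Rbl2 it was above the control in both lines, though Aktip was highest with overexpression and Rbl2 with knockdown. The part of Aktip in the Rbl2 values was not tested. Lpar6 was at 2.76, 3.66 and 3.67 RPKM. Rcbtb2 was at 1.97, 2.71 and 1.24 RPKM, the same order of libraries as Rb1, and its part in the Rb1 values was not tested.

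**Figure D3:**
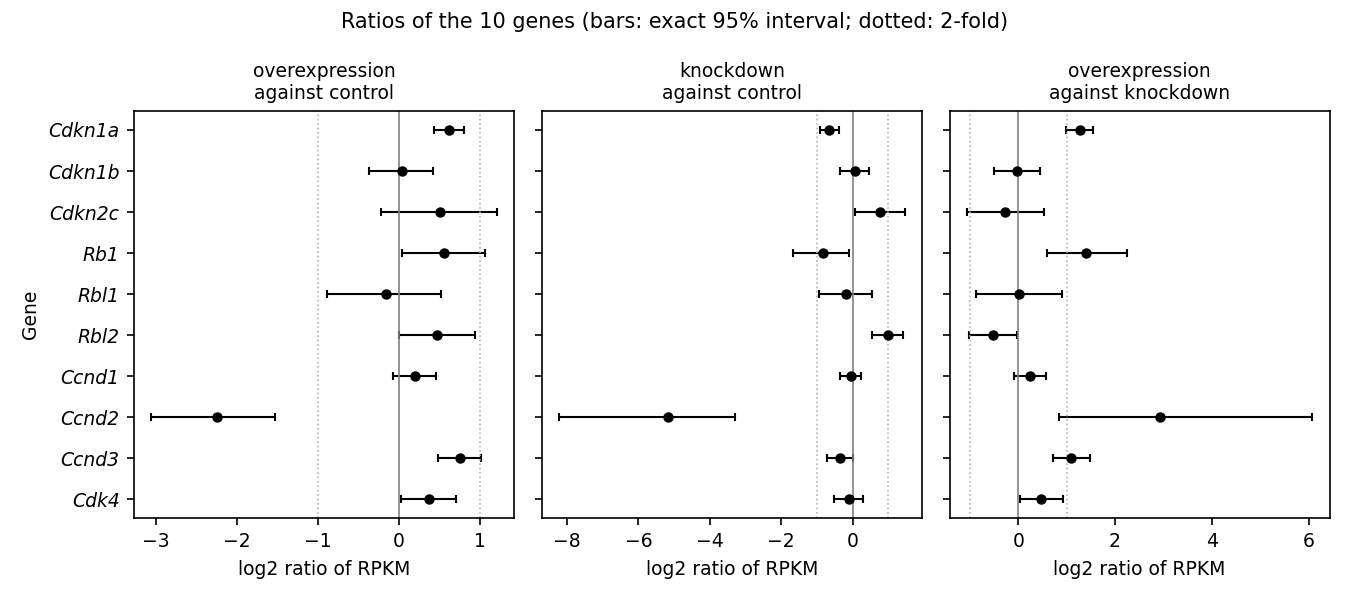
Log2 ratios of RPKM of the 10 genes for overexpression against control, knockdown against control and overexpression against knockdown, with exact 95% counting intervals as bars and dotted lines at 2-fold. Ccnd2 is far to the left in the first pair of panels, while Cdkn1a, Rb1, Ccnd2 and Ccnd3 lie beyond 2-fold on the right in the third. The horizontal scales of the panels differ.

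The methods of the study give a 2-fold criterion, while the legend of its heatmap gives 1.5-fold with a p-value limit. At 2-fold, 1 of the 10 members was lower with overexpression, against 3.47% of 10165 genes, and none was higher, against 3.64%. With knockdown 1 was lower, against 4.19% of 10165 genes, and none was higher, against 3.38%. The member was Ccnd2 in both comparisons, and it passed the filter only through the control library, where it was high. Rbl2, at 1.98 with knockdown, passed 2-fold when the libraries were scaled to the same median, with a ratio of 2.03. In the direct ratio, 4 members were at least 2-fold higher with overexpression than with knockdown, against 5.83% of 10146 genes, and none was lower, against 5.11%. The 4 were Ccnd2 at 7.58 (1.80 to 67.7, and 2.03 with 1 RPKM added to each value), Rb1 at 2.63 (1.51 to 4.76), Cdkn1a at 2.41 (1.99 to 2.93) and Ccnd3 at 2.13 (1.65 to 2.79). Ccnd2 is in this count only because the filter also used the control library, and its ratio rests on 17 and 2 reads.

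Counting intervals gave a finer view, since most members had more reads than the median gene, which had 88, 37 and 32 reads in the 3 libraries. With overexpression the interval lay wholly above 1 for 4 members (Cdkn1a, Rb1, Ccnd3 and Cdk4), against 9.29% of 10162 genes, and wholly below 1 for Ccnd2 alone, against 8.55%. With knockdown it lay above 1 for Cdkn2c and Rbl2, against 8.93%, and below 1 for Cdkn1a, Rb1 and Ccnd2, against 10.4%. In the direct ratio it lay above 1 for 5 members (Cdkn1a, Rb1, Ccnd2, Ccnd3 and Cdk4), against 9.6% of 10143 genes, and below 1 for Rbl2, against 8.14%. Genes with more reads have narrower intervals, so these shares over all genes are no matched background. Ccnd2 is in these counts only through its control value, which let it pass the filter. Of the 10 members, with overexpression 8 lay above the control, and with knockdown 3 did, against 50.4% and 48.4% of all genes. The median log2 ratio was 0.42 with overexpression and −0.15 with knockdown, where the medians over all genes were 0.00 and −0.01.

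Myoblast markers were highest with overexpression, as Cdkn1a, Rb1 and Ccnd3 were, and 4 of the 6 were lowest with knockdown. Over the 6 markers the sum was 388 RPKM with the empty vector, 589 with overexpression and 227 with the hairpin, most of it Des, at 291, 386 and 145 RPKM. Itga7, at 16.8, 55.8 and 17.6 RPKM, and Chrna1, at 28.7, 55.6 and 32.9, were not below the control with knockdown. The 8 markers of differentiating muscle summed to 9.94, 34.5 and 7.43 RPKM, of which Myog gave 3.95, 22.1 and 3.60. With overexpression Tmem8c, Acta1 and Mylpf also lay above the control. Tnnc1, at 2.03 against 2.77 RPKM, and Tnnt3, at 0 against 0.174, lay below it. Apart from Myog, each of these markers had at most 13 reads in any library. The 5 neuronal markers, of which Snap25 was at 0 in each library, summed to 112, 149 and 29.6 RPKM, but with overexpression Stmn2 was at 0.457 of the control, Tubb3 at 3.53 and Nefl at 5.5. The 7 fibroblast markers, with Lum and Thy1 at 0 in each library, summed to 424, 329 and 372 RPKM, and they also differed in direction, with Col1a1 at 0.410 of the control and Dcn at 3.86 with overexpression, and Pdgfra at 1.94 with knockdown. These neuronal and fibroblast genes were named after their values were seen. The part of these markers in the values of the members was not tested, and in bulk RNA fewer cells of a type and less RNA per cell cannot be told apart.

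Of 9 regulators known to act upstream, 2, Myod1 and Myog, passed 2-fold upwards with overexpression, against 3.64% of all genes. With knockdown none was 2-fold away, against 3.38% of all genes higher and 4.19% lower. Myod1, the gene of MyoD, was 2.04-fold higher with overexpression and at 0.584 of the control with knockdown. This was the order of libraries seen for Cdkn1a, but also for Ccnd1, Ccnd3, Cdk4 and Pcna among others. No share of all genes with this order is given, so the match has no background beside it. Myog, the gene of myogenin, was at 3.95, 22.1 and 3.60 RPKM. Trp53, the gene of p53, was at 35.3, 31.5 and 27.4 RPKM, and both of its intervals held 1. Mdm2, a p53 target that degrades p53, was at 12.8 RPKM with the empty vector, 19.5 with overexpression (ratio 1.52, 1.20 to 1.91) and 15.0 with knockdown (1.17, 0.894 to 1.51). Foxo1 and Foxo3 encode FOXO factors, which are known to act on the genes of p27, p130 and cyclin D2. Foxo3 was at 7.62, 9.37 and 11.8 RPKM, with a knockdown ratio of 1.55 (1.12 to 2.12). Foxo1 was at 5.72, 3.85 and 7.77 RPKM, with ratios of 0.673 (0.472 to 0.941) and 1.36 (1.027 to 1.78). Myc, a driver of growth that activates Ccnd2 and represses Cdkn1a in other cells, was at 10.6, 10.9 and 10.4 RPKM. The intervals of Ep300 and Hdac1 held 1 in both comparisons.

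Other genes of the G1 phase were mostly near the control. Of 16 listed, 13 passed the filter. With overexpression 1 was at least 2-fold higher, against 3.64% of all genes, and none lower, against 3.47%. With knockdown 2 were higher, against 3.38%, and none lower, against 4.19%. One of those 2, Cdkn1c, passed the filter only through the knockdown library, so its place in the count follows from the value that was high. Ccnh, the cyclin of the CDK-activating kinase, had ratios of 2.44 (1.04 to 5.71) and, with an interval that held 1, 2.10 (0.825 to 5.19). Cdkn1c, the gene of the CIP/KIP inhibitor p57, was at 0.703, 0.734 and 3.84 RPKM. It had 7, 3 and 14 reads and was 5.46-fold higher with knockdown (2.06 to 16.0). Cdkn2a and Cdkn2b, the genes of the other INK4 inhibitors p16 and p15, were listed at 0 in the 3 libraries. Cdkn2d, the gene of p19, was at 33.3, 34.8 and 44.9 RPKM, with a knockdown ratio of 1.35 (1.06 to 1.71). Named after its values were seen, Cdk6, the other kinase of D cyclins, was at 3.55, 6.73 and 5.82 RPKM, with ratios of 1.90 (1.18 to 3.01) and 1.64 (0.978 to 2.70). Cks1b, which helps to destroy p27, was at 60.3, 45.2 and 52.0 RPKM.

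Of 18 genes of E2F and DP factors, of the MuvB core and of the MYB and FOXM1 proteins that join it, 17 passed the filter. With overexpression 2 of them passed 2-fold upwards, against 3.64% of all genes, and 1 downwards, against 3.47%. With knockdown 1 did so downwards, against 4.19%, and none upwards, against 3.38%. The higher ones were E2f2, an activator E2F, at 2.87 (1.94 to 4.25) and Lin54, a DNA-binding subunit of the MuvB core, at 2.22 (1.31 to 3.75). The lower one was Lin52 at 0.443 (0.111 to 1.30), from 22 and 4 reads. With knockdown, Mybl2, which joins MuvB in cycling cells, was at 0.192 of the control (0.0505 to 0.518), from 57 and 4 reads. The most abundant of these genes were Rbbp4, at 19.2, 24.1 and 24.6 RPKM, and Foxm1, at 21.3, 20.02 and 18.8 RPKM. Chosen after its values were seen, E2f4, the main E2F partner of p130, was at 14.2, 19.3 and 9.08 RPKM, with ratios of 1.36 (1.02 to 1.80) and 0.641 (0.427 to 0.936).

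Most of the listed S phase genes, which E2F activates, lay below the control with knockdown. Of 16 S phase genes, 14 lay below the control with knockdown and 2 above, where 51.6% of all genes lay below, with a median log2 ratio of −0.46, while 1, the replicative helicase gene Mcm5, was at least 2-fold lower at 0.491 (0.300 to 0.769), against 4.19% of all genes. The interval lay below 1 for 4 of the 16, Mcm3, Mcm4, Mcm5 and Mcm6, named after their values were seen, against 10.4% of all genes. Pcna, the sliding clamp of replication, was at 35.9, 43.0 and 26.2 RPKM, and Rrm2, a subunit of ribonucleotide reductase, at 15.7, 28.3 and 19.1 RPKM. With overexpression 10 of the 16 lay above the control, against 50.4% of all genes, none was 2-fold away and the median log2 ratio was 0.13.

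Most mitotic genes were within counting error of the control. Of 12 mitotic genes, none reached 2-fold in either line. With overexpression 10 lay above the control, against 50.4% of all genes, and with knockdown 9 did, against 48.4%. The median log2 ratios were 0.17 and 0.12. With overexpression the interval lay above 1 for 3, Ccnb1 at 1.74, Cdk1 at 1.59 and Birc5 at 1.34, and below 1 for 1, Mki67. It lay above 1 for 1, Ccnb2, and below for none with knockdown. Apart from Mki67, these genes were named after their values were seen. The shares of all genes were 9.29% above and 8.55% below with overexpression, and 8.93% and 10.4% with knockdown. Mki67, the gene of the proliferation antigen Ki-67, was at 42.2 RPKM with the empty vector, 33.0 with overexpression and 43.3 with the hairpin, so its overexpression ratio of 0.781 (0.717 to 0.851) lay below 1 and its knockdown ratio of 1.026 (0.946 to 1.11) did not. Cdc20, an activator of the anaphase-promoting complex, was at 18.8, 26.1 and 27.5 RPKM, with ratios of 1.39 (0.957 to 1.99) and 1.46 (0.998 to 2.11). Messenger RNAs of S phase and mitosis were thus present in each library at 12 h. The difference between the S phase and mitotic lists was not tested.

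**Figure D4:**
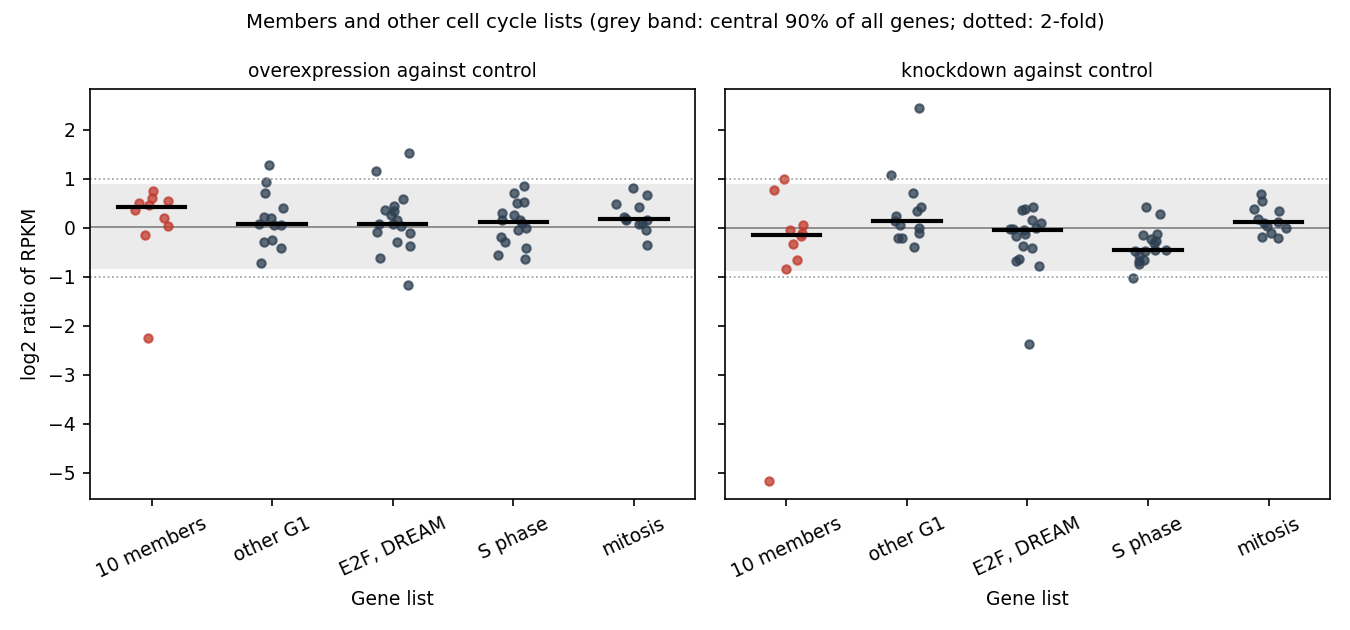
Log2 ratios of RPKM to the control with overexpression (left) and knockdown (right) for the 10 members (red) and the measured genes of 4 other cell cycle lists (dark), with list medians as black lines. The grey band holds the central 90% of all genes with a mean of at least 1 RPKM, and dotted lines mark 2-fold. Ccnd2 is the lowest point in both panels, and the S phase list has the lowest median with knockdown, at −0.46.

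The 3 genes whose pair of log2 ratios to the control lay nearest to that of Cdkn1a, among 5893 genes with a mean of at least 5 RPKM, were Cd248, Atp5e and Lta4h. Their Euclidean distances over the 2 log2 ratios were 0.03, 0.03 and 0.04. Counting error was larger than this, since the log2 intervals of Cdkn1a ran from 0.430 to 0.796 and from −0.924 to −0.396. Which genes are nearest is therefore uncertain. Cd248, for example, was at 11.3, 17.1 and 7.27 RPKM.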

How the data were processed

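Per the file headers the authors deposited 1 RPKM value per gene and library. TopHat at default parameters aligned the reads to mm9, the submitters' notes naming release 1.4.1, and they used DEGSeq for the coverage of each gene. For the annotation, multiply mapped reads and strand, details were not given in the sources used here. Ratios used the deposited RPKM without a pseudocount, for genes that averaged at least 1 RPKM. Genes at 0 in the denominator had no ratio, and genes at 0 in the numerator counted as lower.

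RPKM times length is a whole multiple of the value of 1 read. The commonest such product among genes with 1 GENCODE length under 30 reads gave the read total. At these totals 61.6%, 65.0% and 64.7% of such genes were whole within 0.003 reads per read in the control, overexpression and knockdown libraries, against medians of 4.71%, 5.08% and 5.03% at other totals. Reads per gene came from a GENCODE length that was whole in all libraries (23.6% of genes, among them Cdkn2c) or else from the shortest whole length from 200 nt, so they are low estimates and intervals are if anything too wide. The steps were tested on simulated data.

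Members and lists were chosen with earlier results of these data known. Besides the members, named genes are the 2 most abundant of each list and up to 4 at least 2-fold from the control, the regulators, markers of myoblasts and differentiating muscle, and the 3 genes nearest to Cdkn1a. Alternatives were 1 RPKM added, median and upper quartile scaling, a 1.5-fold threshold, no filter, a filter of 5 RPKM, and reads in place of RPKM. Gene positions are those of GENCODE on mm9. Computation ran in Python 3.11.15 with scipy 1.17.1, pandas 2.3.3 and numpy 2.4.6, and plots in matplotlib 3.10.9.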

Additional observations from a re-analysis of the deposited data

How the results depend on the processing

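No paired analysis was possible because each condition had 1 library, and for the same reason no replicate could be left out. Depth limits the low members most, since Ccnd2 had 2 reads with knockdown. No ratio past 2-fold changed side. Of the other member ratios, 1 crossed 1, that of Rbl1 for overexpression against knockdown, which was 1.01 as deposited, 0.992 with median scaling and 0.975 with upper quartile scaling. With a 1.5-fold threshold, 2 members were higher with overexpression, and with knockdown 2 were higher and 3 lower. No share of all genes is given at 1.5-fold, so these counts have no background beside them. Median and upper quartile scaling each put 1 member, Rbl2, at 2-fold or more above the control with knockdown. Of 90 single-member ratios under alternatives 89 stayed within their counting interval. The other was Ccnd2 with knockdown, at 0.155 with 1 RPKM added, and its ratio of overexpression to knockdown went from 7.58 to 2.03 there. The scaling factors ran only from 0.979 to 1.02, too small a change to move a ratio out of its interval. For median and upper quartile scaling the count of 89 is therefore no check.

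Counts over the 58 measured genes of the 4 other lists depended on the settings. As deposited, 3 were higher and 1 lower with overexpression, 2 higher and 2 lower with knockdown, and 5 higher and 2 lower in the direct ratio. The shares of all genes were 3.64% and 3.47%, 3.38% and 4.19%, and 5.83% and 5.11%. With 1 RPKM added the counts were 1 and 0, 1 and 1, and, for lower genes in the direct ratio, 1. At 1.5-fold the counts were 10 and 4, 4 and 8, and 11 and 4, with no share of all genes given. Over the 36 genes with a mean of at least 5 RPKM they were 0 and 0, 0 and 1, and 2 and 0. Median scaling left 1 lower gene with knockdown. Reads in place of RPKM moved the share of Ccnd2 in the D cyclins to 22.9% in the control and 4.34% with overexpression.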
